A study of Rattus norvegicus with 12 samples.

Results

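The precursors of 10 neuropeptides, beyond the enkephalin, dynorphin and substance P best known there, were followed in rat striatum: Tac3, Nts, Trh, Cck, Pnoc, Crh, Vip, Cartpt, Nmb and Adcyap1. They were taken by gene symbol, and every probe whose accession maps to one of these symbols was used. All 10 genes were on the array, through 11 of its 30367 probes and among 14629 genes with a symbol. Striatal RNA of male rats of the Wistar strain was hybridised to 12 single-colour arrays, 3 in each of 4 groups. The first group was the lesioned side of rats given L-DOPA with zonisamide. The others were the lesioned side of rats given L-DOPA, the lesioned side of rats given saline, and the non-lesioned side of rats given saline.

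All of these rats, those behind the non-lesioned arrays included, had received the dopamine neuron toxin 6-OHDA into the left medial forebrain bundle, had been challenged once with methamphetamine at 3 mg/kg and had turned at least 7 times per minute in that challenge. Daily treatment lasted 7 days. L-DOPA, the precursor of dopamine, was given at 100 mg/kg after the peripheral decarboxylase inhibitor benserazide, and zonisamide, a drug against epilepsy and Parkinson's disease, at 50 mg/kg, 30 min after L-DOPA. The non-lesioned side is thus the other hemisphere of a lesioned animal, no group received zonisamide without L-DOPA, and the age of the rats is not given in the sources used here. It is not stated whether the saline arrays of both sides came from the same rats. All arrays were treated as separate, so a pairing of the saline sides, if there was one, is ignored in the lesion comparison. The p-values rest on the spread between arrays within the 4 groups.

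Neuropeptides are cut out of larger precursor proteins in the secretory pathway, stored in dense-core granules and released on strong activity to act on G protein-coupled receptors. In the striatum, dopamine acts on the 2 classes of spiny projection neuron, and the precursors of neurotensin and of several other peptides are known there for following dopamine signalling and its drugs. Others, such as the precursors of vasoactive intestinal peptide, cholecystokinin and corticotropin-releasing hormone, are made mainly by interneurons or by neurons of the cortex and hypothalamus.

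RefSeq promoter windows (build GRCr8, 250 bases before to 50 after the gene's start) were at hand for 6 of the 10 genes, Adcyap1, Cartpt, Nmb, Nts, Trh and Vip. Those of Nts and Trh are shown because, of the tested members with a window, these had the smallest p-values, at chr7:39460839-39461138 (minus strand) for Nts and chr4:126301713-126302012 (minus strand) for Trh. Both are written 5′ to 3′ in the direction of transcription, and the capitals mark TGAGTCA and CGTCA in Nts and CGTCA in Trh.
Nts promoter: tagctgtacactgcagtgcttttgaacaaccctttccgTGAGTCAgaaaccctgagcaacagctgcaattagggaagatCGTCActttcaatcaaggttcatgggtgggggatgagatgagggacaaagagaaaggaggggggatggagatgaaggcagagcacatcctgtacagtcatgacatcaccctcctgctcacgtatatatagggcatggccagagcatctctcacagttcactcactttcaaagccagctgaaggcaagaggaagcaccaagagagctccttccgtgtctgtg
Trh promoter: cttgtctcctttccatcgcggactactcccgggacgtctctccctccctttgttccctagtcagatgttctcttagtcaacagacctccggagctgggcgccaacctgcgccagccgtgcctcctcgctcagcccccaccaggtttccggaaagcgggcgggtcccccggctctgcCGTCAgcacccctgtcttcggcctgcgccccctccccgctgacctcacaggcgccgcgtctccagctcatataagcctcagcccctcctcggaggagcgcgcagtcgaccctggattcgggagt
The windows were searched on both strands for the cAMP response element TGACGTCA, for its shorter part CGTCA, and for the AP-1 element TGACTCA or TGAGTCA. The 2 AP-1 spellings are reverse complements of each other and so count as 1 motif, and TGACGTCA holds CGTCA on both strands. In Nts, TGAGTCA starts at position -212 from the gene's start and CGTCA at -171. In Trh, CGTCA starts at -74. Of the other windows, that of Cartpt holds the full TGACGTCA at -142, that of Vip holds CGTCA on the reverse strand at -97, and those of Adcyap1 and Nmb hold none of these letters. Among all 33469 promoter windows of this length, 1.83% hold TGACGTCA, 21.2% hold CGTCA and 4.63% hold the AP-1 element. A match is a description of letters and was not tied to any measurement here.

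Values are log2 levels, that is log2 of the processed signal minus the log2 of the array's 75th percentile, so that 0 is the brightness of the 75th percentile spot and 1 unit is a doubling. Levels of one probe are compared between arrays and never with those of another probe. The arrays had 75th percentiles of 793 to 1737 intensity units and 67.7% to 74.0% of probes well above background. The 11 markers of spiny projection neurons and the 10 of striatal interneurons that were looked at were well above background on every array, as the label striatum has it. Arrays of 1 group differed in markers of neighbouring tissue. The mean log2 level of the 6 cortical projection neuron markers on the array was highest on replicate 1 of L-DOPA (-2.82), on replicate 1 of L-DOPA with zonisamide (-3.50) and on replicate 2 of lesioned saline (-3.69), and ran from -5.58 to -4.53 on the other 9. Their summed level, which the brightest genes dominate, did not set these arrays apart. It was 0.25, -0.31 and 0.05 on them and ran from -1.02 to 0.26 over all 12 (log2). Arrays called highest in cortical markers below are so by the mean log2 level. The summed level of 12 choroid plexus markers ran from 2.83 to 6.78 with L-DOPA and zonisamide, from 4.38 to 7.43 with L-DOPA, from 0.25 to 4.42 on lesioned saline and from 2.50 to 7.11 on non-lesioned saline arrays (log2). Of the hypothalamic list, 9 of 10 genes were on the array and 7 were well above background on every array, at a summed level of -0.25 to 1.17, 0.28 to 0.66, 0.47 to 0.65 and 0.13 to 0.36 in the same order of groups, while Otp and Sim1, transcription factors that mark hypothalamic neurons, were well above background on 0 of 12 arrays.

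Tac3 encodes the precursor of neurokinin B, the tachykinin that acts mainly on the receptor Tacr3. Its log2 levels were 2.54, 2.09 and 2.31 with L-DOPA and zonisamide, 3.08, 3.47 and 4.57 with L-DOPA, 2.85, 2.57 and 3.11 on the lesioned side with saline, and 1.53, 1.69 and 1.71 on the non-lesioned side. Every lesioned array, with either drug treatment or with saline, was above every non-lesioned array, and the L-DOPA arrays were above the L-DOPA and zonisamide arrays without overlap. The means were 2.31 ± 0.23 with L-DOPA and zonisamide, 3.71 ± 0.77 with L-DOPA, 2.84 ± 0.27 on lesioned saline and 1.64 ± 0.10 on non-lesioned saline arrays (SD, n = 3 each), which puts L-DOPA highest, then lesioned saline, then L-DOPA with zonisamide, then the non-lesioned side. L-DOPA and lesioned saline overlapped, and lesioned saline stood just above L-DOPA with zonisamide, with no array in common. In the L-DOPA group, replicate 3 at 4.57 lay furthest from its group mates.

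Nts encodes the precursor of neurotensin and neuromedin N, and neurotensin is a known modulator of striatal dopamine signalling. Its log2 levels were -0.61, -0.01 and -0.22 with L-DOPA and zonisamide, 0.26, 1.36 and 1.19 with L-DOPA, 0.13, 0.20 and 0.48 with lesioned saline, and -0.61, -0.52 and -0.57 with non-lesioned saline. The L-DOPA and the lesioned saline arrays were all above the non-lesioned arrays and above the arrays with zonisamide. The means were -0.28 ± 0.30 with L-DOPA and zonisamide, 0.94 ± 0.59 with L-DOPA, 0.27 ± 0.18 on lesioned saline and -0.57 ± 0.05 on non-lesioned saline arrays (SD, n = 3 each), in the same order of height as for Tac3. Of neighbours in this order, L-DOPA overlapped with lesioned saline and L-DOPA with zonisamide overlapped with the non-lesioned side, where replicate 1 of both stood at -0.61.

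Trh encodes the precursor of thyrotropin-releasing hormone. Its log2 levels were -0.83, -3.54 and -2.90 with L-DOPA and zonisamide, -1.56, 0.47 and -0.08 with L-DOPA, -2.95, -3.29 and -3.57 on lesioned saline and -2.78, -1.54 and -2.03 on non-lesioned saline arrays. Lesioned saline was the lowest group and did not overlap with non-lesioned saline or with L-DOPA. The drug groups were wide: replicate 1 of L-DOPA stood within the non-lesioned range, and replicate 1 of L-DOPA with zonisamide stood above it. The means were -2.42 ± 1.41 with L-DOPA and zonisamide, -0.39 ± 1.05 with L-DOPA, -3.27 ± 0.31 on lesioned saline and -2.12 ± 0.62 on non-lesioned saline arrays (SD, n = 3 each). By height, L-DOPA was followed by the non-lesioned side, L-DOPA with zonisamide and lesioned saline, and each group overlapped with its neighbour in this order.

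**Figure D1:**
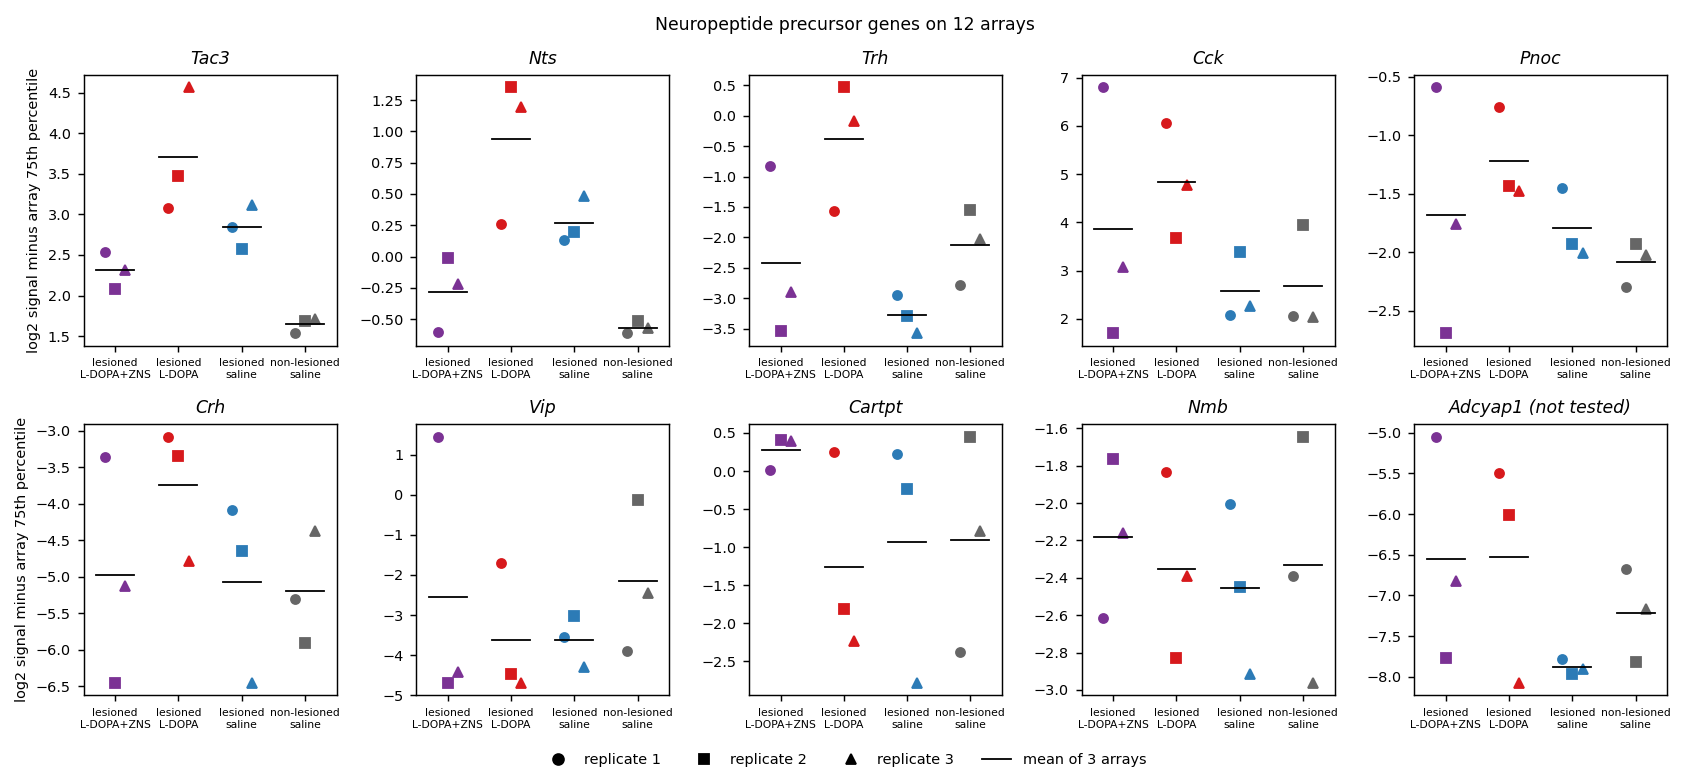
Log2 level (log2 processed signal minus the array's 75th percentile) of the 10 precursor genes on each of the 12 arrays, a panel per gene with its own vertical axis. Symbols are replicates, colours are groups and the line is the mean of 3 arrays; ZNS is zonisamide. Tac3 stands between 1.53 and 1.71 on the non-lesioned side and above 2 on all other arrays, and Cck, Pnoc and Vip have their highest array in replicate 1 of L-DOPA with zonisamide.

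Cck, the precursor of cholecystokinin, had log2 levels of 6.81, 1.70 and 3.07 with L-DOPA and zonisamide, 6.06, 3.68 and 4.78 with L-DOPA, 2.08, 3.40 and 2.27 on lesioned saline and 2.06, 3.96 and 2.03 on non-lesioned saline arrays. Replicate 1 of L-DOPA with zonisamide and replicate 1 of L-DOPA were its highest arrays, and these are also the 2 arrays with the highest cortical markers. Pnoc, the precursor of nociceptin, had the same 2 arrays on top. Its levels were -0.58, -2.70 and -1.76 with L-DOPA and zonisamide, -0.75, -1.43 and -1.47 with L-DOPA, -1.45, -1.93 and -2.01 on lesioned saline and -2.30, -1.93 and -2.02 on non-lesioned saline arrays. Neurod6, a transcription factor of cortical projection neurons, stood at -2.71 on replicate 1 of L-DOPA with zonisamide and at -2.50 on replicate 1 of L-DOPA, against -6.94 to -4.04 on the other 10 arrays. Not every cortical marker was high there. Their summed level was -0.31 and 0.25 on these 2 arrays, and highest on replicate 3 of L-DOPA (0.26). How much of the Cck and Pnoc levels came with these markers was not tested.

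Crh, the precursor of corticotropin-releasing hormone, had log2 levels of -3.36, -6.45 and -5.13 with L-DOPA and zonisamide, -3.08, -3.35 and -4.79 with L-DOPA, -4.09, -4.65 and -6.45 on lesioned saline and -5.31, -5.91 and -4.37 on non-lesioned saline arrays, with the third lesioned saline array not well above background. A second, dimmer Crh probe was not tested, and it too was highest on replicates 1 and 2 of L-DOPA (-5.27 and -5.46) and replicate 1 of L-DOPA with zonisamide (-5.55). Vip encodes the precursor of vasoactive intestinal peptide, made in cortex by a class of interneuron. Its levels were 1.45, -4.69 and -4.43 with L-DOPA and zonisamide, -1.70, -4.46 and -4.69 with L-DOPA, -3.55, -3.03 and -4.30 on lesioned saline and -3.89, -0.14 and -2.45 on non-lesioned saline arrays. A single array of L-DOPA with zonisamide thus lay over 5 units above its group mates, and no pair of groups was apart.

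Cartpt, the precursor of the CART peptides, had log2 levels of 0.01, 0.41 and 0.39 with L-DOPA and zonisamide, 0.25, -1.82 and -2.24 with L-DOPA, 0.22, -0.24 and -2.79 on lesioned saline and -2.38, 0.45 and -0.79 on non-lesioned saline arrays. The 3 arrays with zonisamide lay within 0.5 units of each other, and each other group spread over more than 2 units and overlapped with them. Nmb, the precursor of neuromedin B, had levels of -2.62, -1.76 and -2.16 with L-DOPA and zonisamide, -1.83, -2.83 and -2.39 with L-DOPA, -2.01, -2.45 and -2.91 on lesioned saline and -2.39, -1.64 and -2.96 on non-lesioned saline arrays, and all groups overlapped. Adcyap1, the precursor of PACAP, was near background on most arrays. It was well above background on 1 of 3 arrays with L-DOPA and zonisamide, on 2 of 3 with L-DOPA, and on none of 3 with lesioned or with non-lesioned saline, and so it did not enter the test. Its log2 levels were -5.05, -7.77 and -6.82 with L-DOPA and zonisamide, -5.50, -6.01 and -8.08 with L-DOPA, -7.78, -7.96 and -7.91 on lesioned saline and -6.68, -7.82 and -7.16 on non-lesioned saline arrays. The arrays well above background were replicate 1 of both drug groups and replicate 2 of L-DOPA, while replicate 3 of L-DOPA lay below every lesioned saline array, and no fold is given.

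The first comparison asks what the dopamine lesion did to these precursors without a drug, lesioned against non-lesioned saline. None of the 9 tested members passed, and over all 19532 tested features 0% did (limma, adjusted p under 0.05 over all features). The values nearest to passing were higher Tac3 and Nts. Tac3 averaged 2.84 ± 0.27 on the lesioned and 1.64 ± 0.10 on the non-lesioned side, a log2 difference of 1.20 ± 0.33 (standard error; 95% interval 0.47 to 1.93; adjusted p = 0.471), or 2.30-fold. Nts averaged 0.27 ± 0.18 and -0.57 ± 0.05, a difference of 0.84 ± 0.27 (0.23 to 1.45; adjusted p = 0.506). These were the 2 members with an unadjusted p under 0.05, which 8.48% of all features had. Tac3 and Nts were higher without overlap between groups and Trh lower without overlap (-1.15 ± 0.70, adjusted p = 0.664), against 17% of all features without overlap in either direction. All 10 choroid plexus markers tested were lower on the lesioned side, with a median of -1.70, and with the choroid plexus gene Ttr as a covariate Tac3 was at 1.28 and Nts at 0.93. In bulk tissue, fewer cells of a type and less RNA per cell cannot be told apart, here and in what follows. On the slide that held an array of both groups, the differences were 1.31 for Tac3, 0.75 for Nts and -0.17 for Trh. Of the 9 members, 4 were higher and 5 lower, with a median of -0.03 beside 0.05 over all features, and the other 6 lay between -1.47 ± 1.58 (Vip) and 0.29 ± 0.44 (Pnoc).

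The second comparison, L-DOPA against saline on the lesioned side, asks what repeated L-DOPA changed in the denervated striatum. None of the 9 members passed, against 0.415% of all features (limma, adjusted p under 0.05). Trh stood out by size: it averaged -0.39 ± 1.05 with L-DOPA and -3.27 ± 0.31 with saline (SD, n = 3 each), a log2 difference of 2.88 ± 0.70 (95% interval 1.33 to 4.43; adjusted p = 0.132), or 7.36-fold, ranked 294 of all features by p. Its L-DOPA arrays were all above its saline arrays. Within slides the Trh difference was 1.38 on the one shared by replicate 1 and 3.76 on the one shared by replicate 2. Without the 2 arrays highest in cortical markers, an alternative chosen after the data were seen, it was 3.46 with an adjusted p of 0.0156. The L-DOPA array left out, replicate 1, was the lowest of its group for Trh (-1.56), so the difference had to grow. Lesioned saline replicate 2, with a cortical marker mean of -3.69, was kept. With array weights the Trh difference was 2.99 with an adjusted p of 0.0375.

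Tac3 was 0.86 ± 0.33 higher with L-DOPA (adjusted p = 0.355) and Nts 0.67 ± 0.27 (adjusted p = 0.391), and in both genes replicate 1 of L-DOPA fell within the saline range. With Trh they made 3 members at an unadjusted p under 0.05, which 11.2% of all features had. Without the 2 arrays highest in cortical markers, Nts was 1.00 higher with an adjusted p of 0.0456 and Tac3 1.18 with an adjusted p of 0.144. These 2 arrays include the lowest L-DOPA array of both genes, so both differences had to grow. Cck was higher on every L-DOPA array than on every lesioned saline array (2.26 ± 1.16, 95% interval -0.33 to 4.84, adjusted p = 0.512). Within slides its difference was 3.98 on the slide that holds the L-DOPA array with high cortical markers and 0.29 on the other. On that other slide the lesioned saline array, replicate 2, had the next highest cortical markers (-3.69) and the highest Cck of its group (3.40). Cck above 3.40 was also found on arrays with a lower mean log2 level of these markers. L-DOPA replicate 3 had 4.78 with a marker mean of -5.05, and its summed marker level (0.26) was the highest of all 12. L-DOPA replicate 2 had 3.68 with a mean of -5.18, and non-lesioned replicate 2 had 3.96 with -5.23. The part of the cortical markers in the Cck difference was not tested. Trh and Cck were the 2 members without overlap, both higher, against 22.4% of all features without overlap in either direction. Of the 9 members 8 were higher, with a median of 0.67 beside -0.03 over all features, and the rest of the members ran from -0.33 ± 0.93 (Cartpt) to 1.32 ± 0.85 (Crh). All 10 choroid plexus markers tested were also higher with L-DOPA, with a median log2 difference of 2.89. Of the striatal interneuron markers 9 of 10 were lower, with a median of -0.42, and their summed log2 level was 4.41 to 4.48 on the L-DOPA arrays, against 4.79 to 4.85 on the lesioned saline arrays. The part of these marker differences in the members' values was not tested, beyond the covariate that follows. With Ttr as a covariate the Trh difference was 2.54 and its adjusted p 0.691.

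The third comparison, L-DOPA with zonisamide against L-DOPA alone, asks what zonisamide added. No member passed, against 0.466% of all features (limma, adjusted p under 0.05), and the nearest were lower Nts and Tac3. Nts averaged -0.28 ± 0.30 with zonisamide and 0.94 ± 0.59 without (SD, n = 3 each), a log2 difference of -1.22 ± 0.27 (95% interval -1.82 to -0.61; adjusted p = 0.0908). Tac3 averaged 2.31 ± 0.23 with zonisamide and 3.71 ± 0.77 without, a difference of -1.39 ± 0.33 (-2.13 to -0.66; adjusted p = 0.106). On all 3 slides that held an array of both groups the difference had the same sign, with -0.87, -1.41 and -1.37 for Nts and -0.54, -2.26 and -1.38 for Tac3. Both were lower without overlap, against 17.3% of all features without overlap in either direction. Without replicate 1 of L-DOPA both passed, Nts at -1.55 (adjusted p = 0.0154) and Tac3 at -1.71 (adjusted p = 0.0395). That array was the lowest of its group for both genes, so both differences had to widen. Over all alternatives the adjusted p ran from 0.0154 to 0.413 for Nts and from 0.0395 to 0.374 for Tac3 (limma). Equal replicate numbers shared a slide in this comparison, and with the replicate number as a block the adjusted p was 0.0915 for Nts and 0.130 for Tac3, while 13 features passed in place of 91.

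Trh was -2.03 ± 0.70 with zonisamide relative to L-DOPA alone (adjusted p = 0.262), and here the slides differed: 0.73, -2.81 and -4.01. The slide with the positive value is the one that holds both arrays with high cortical markers. Without those 2 arrays the Trh difference was -3.41 (adjusted p = 0.0247), the Nts difference -1.39 (adjusted p = 0.0259) and the Tac3 difference -1.82 (adjusted p = 0.0677). For Trh and Tac3 they were the lowest array with L-DOPA alone and the highest with zonisamide, so these differences had to widen. For Nts each was the lowest of its group. Nts, Tac3 and Trh were the 3 members at an unadjusted p under 0.05, against 12.3% of all features. The other 6 ran from -1.24 ± 0.85 (Crh) to 1.54 ± 0.93 (Cartpt), and of all 9 members 6 were lower, with a median of -0.98 beside -0.03 over all features. All 10 choroid plexus markers tested were lower with zonisamide, with a median of -1.56. Of the interneuron markers 8 of 10 were higher, with a median of 0.20, and of the hypothalamic markers 6 of 7 were lower, with a median of -0.30; their part in the members' values was not tested. With Ttr as a covariate Nts was at -1.13 (adjusted p = 0.176), Tac3 at -1.32 (adjusted p = 0.198) and Trh at -1.89 (adjusted p = 0.383).

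**Figure D2:**
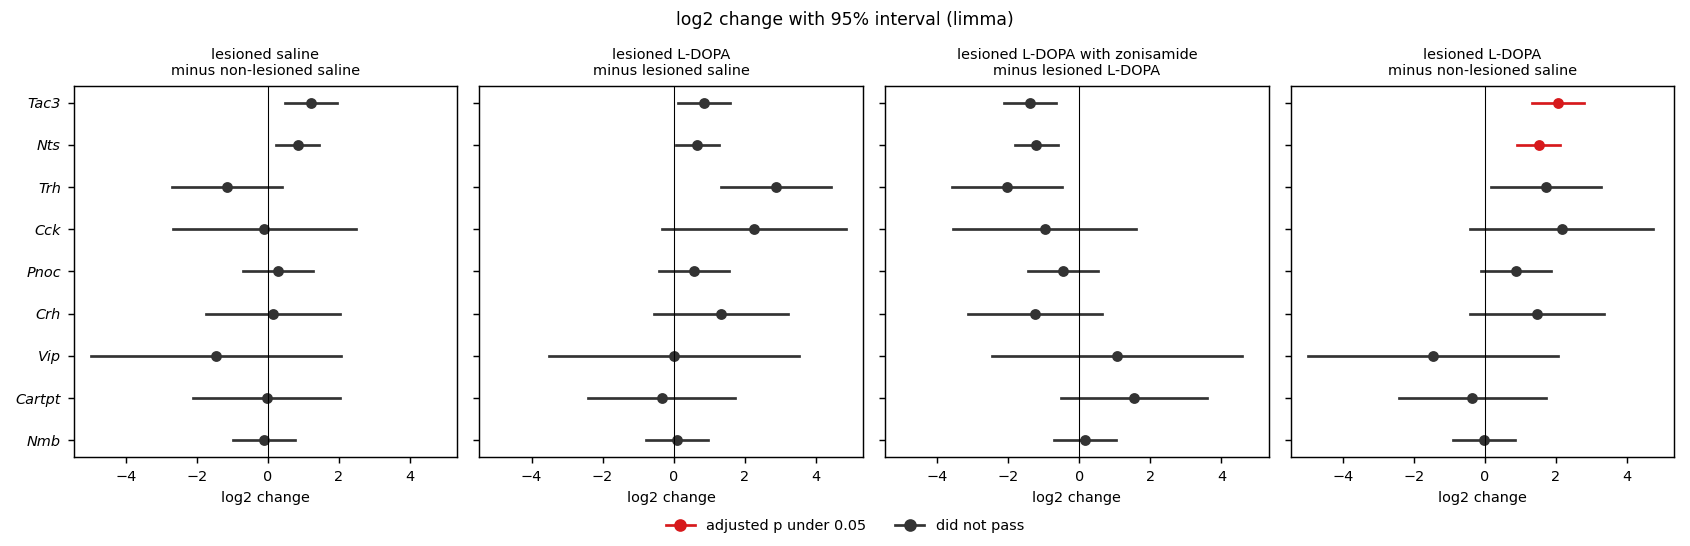
Log2 change of the 9 tested members with its 95% interval from limma in 4 comparisons; the horizontal axis is the log2 change and red marks an adjusted p under 0.05. Tac3 and Nts passed with L-DOPA against the non-lesioned side, at 2.06 and 1.51, and in no other panel did a member pass.

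L-DOPA against the non-lesioned side differs by the lesion and the drug together, and shares its arrays with each of the comparisons above. Here 2 of the 9 members passed, against 1.12% of all features, and both rose. Tac3 averaged 3.71 ± 0.77 on the lesioned side with L-DOPA and 1.64 ± 0.10 on the non-lesioned side (SD, n = 3 each), a rise of 2.06 ± 0.33 on the log2 scale (95% interval 1.33 to 2.79) or 4.18-fold, with an adjusted p of 0.0294 (limma). Nts averaged 0.94 ± 0.59 with L-DOPA and -0.57 ± 0.05 on the non-lesioned side, a rise of 1.51 ± 0.27 (0.90 to 2.11) or 2.84-fold, with an adjusted p of 0.0392 (limma). Where a slide held both groups, the differences were 1.55 and 2.89 for Tac3 and 0.88 and 1.71 for Nts. Leaving out any 1 non-lesioned array, or replicate 2 of L-DOPA, ended both calls (adjusted p between 0.0643 and 0.154), and leaving out replicate 3 of L-DOPA ended that of Nts (adjusted p = 0.131). Both calls were also lost with slide as a fixed block (adjusted p = 0.152 for Tac3 and 0.170 for Nts), with the replicate number as a block (0.0529 and 0.0539), with only the groups compared in the fit (0.182 and 0.194) and with Ttr as a covariate. Over all alternatives the adjusted p ran from 0.0134 to 0.182 for Tac3 and from 0.00584 to 0.194 for Nts.

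Trh was 1.73 ± 0.70 above the non-lesioned side with L-DOPA (adjusted p = 0.301) and overlapped with it through replicate 1. Without the 2 arrays highest in cortical markers, and so without its lowest L-DOPA array, its difference was 2.31 (adjusted p = 0.0366). Pnoc was higher without overlap (0.86 ± 0.44, adjusted p = 0.426), which with Tac3 and Nts made 3 members, against 18.8% of all features without overlap in either direction. The other 5 ran from -1.46 ± 1.58 (Vip) to 2.16 ± 1.16 (Cck), and the median of the 9 was 1.46 beside 0.04 over all features. In the same comparison 4 of 4 tested cortical markers were higher, with a median of 0.91, and 10 of 10 choroid plexus markers, with a median of 0.85. The cortical list had 10 genes, and only these 4 were tested. Of the 4, Neurod6 was well above background on 1 of 3 non-lesioned arrays and ran from -6.23 to -2.50 with L-DOPA. In lesioned against non-lesioned saline 3 of the 4 were higher, with a median of 0.87. Of the spiny neuron markers 9 of 11 were lower, and of the interneuron markers 8 of 10 were lower. Of the 11 spiny neuron markers 1 passed (limma, adjusted p under 0.05), against 1.12% of all features, and none of the interneuron markers did. With Ttr as a covariate Tac3 was at 1.96 (adjusted p = 0.0896) and Nts at 1.39 (adjusted p = 0.111).

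L-DOPA with zonisamide was also set against both saline groups. Against lesioned saline none of the 9 members passed, as 0% of all features did (limma), and none had an unadjusted p under 0.05, against 7.29% of all features. Nts (-0.55 ± 0.27, adjusted p = 0.680) and Tac3 (-0.53 ± 0.33, adjusted p = 0.717) were lower without overlap, against 18.1% of all features without overlap in either direction, with a gap for Tac3 of 2.54 to 2.57 between the nearest arrays. Against the non-lesioned side none passed or had an unadjusted p under 0.05 either, against 0% and 4.21% of all features. Tac3 was higher without overlap there (0.67 ± 0.33, 95% interval -0.06 to 1.40, adjusted p = 1), against 7.16% of all features without overlap in either direction, and Nts was at 0.29 ± 0.27 and Trh at -0.30 ± 0.70. The intervals for Trh leave room for large differences either way.

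**Figure D3:**
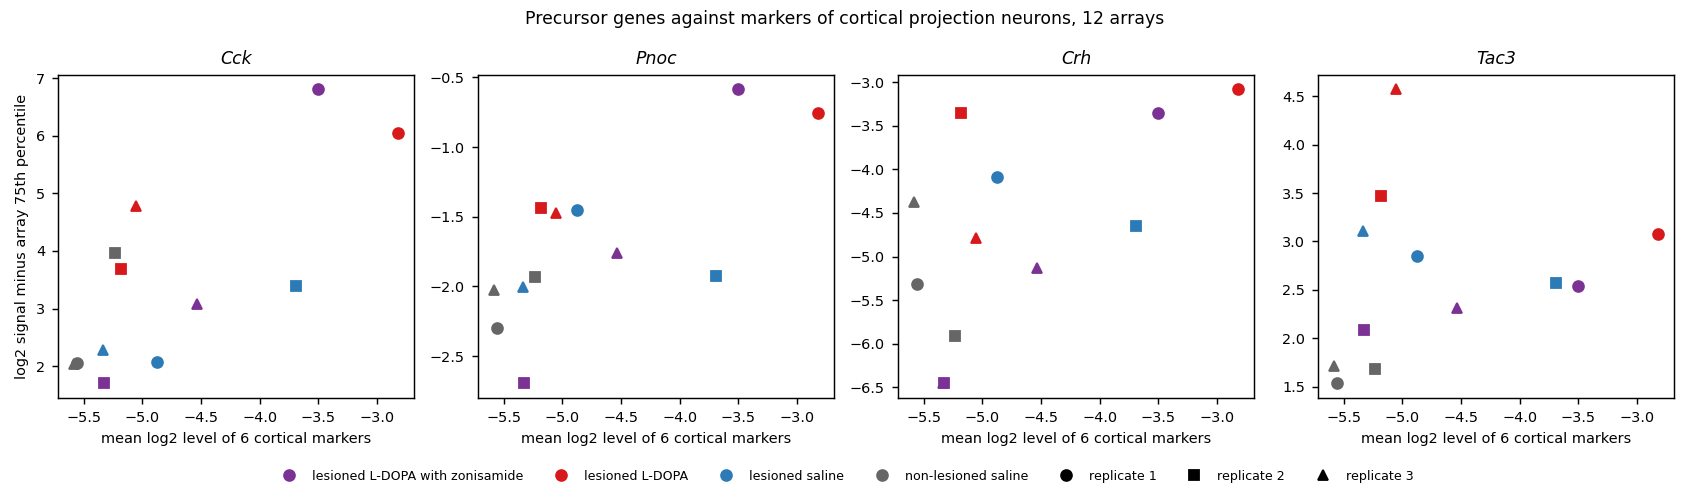
Log2 level of Cck, Pnoc, Crh and Tac3 on the vertical axes against the mean log2 level of 6 cortical projection neuron markers on the horizontal axis, for each of the 12 arrays (colours are groups, symbols are replicates). The arrays at -2.82 and -3.50 are replicate 1 of the L-DOPA and of the zonisamide group; they hold the highest Cck and Pnoc values and 2 of the 3 highest Crh values, and lie in the middle of the Tac3 range.

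Without the 2 arrays highest in cortical markers, the Cck difference was 1.65 for L-DOPA against lesioned saline (adjusted p = 0.340) and -1.84 for L-DOPA with zonisamide against L-DOPA (adjusted p = 0.369), and that of Pnoc 0.34 (adjusted p = 0.653) and -0.77 (adjusted p = 0.351). Against lesioned saline, the Cck difference with L-DOPA and zonisamide was 1.28 with these arrays and -0.19 without. It had to fall, since the zonisamide array left out was the highest of its group for Cck. The members' levels also went together in pairs over the 12 arrays. As a description, Pearson's r was 0.88 between Tac3 and Nts, 0.87 between Pnoc and Cck and 0.83 between Pnoc and Crh; the arrays share groups, slides and the marker levels above.

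The peptides act through receptors and depend on convertases, granule proteins and peptidases, and 38 such genes were followed with them. Of these, 35 were on the array and 32 were tested. The receptors Trhr, Cckar and Crhr2 were on it but too dim. None passed (limma) in lesioned against non-lesioned saline, in L-DOPA against lesioned saline or in L-DOPA with zonisamide against L-DOPA, where 7, 7 and 8 of the 32 had an unadjusted p under 0.05, against 8.48%, 11.2% and 12.3% of all features. None passed in L-DOPA with zonisamide against lesioned or non-lesioned saline either, where 3 had an unadjusted p under 0.05 in each, against 7.29% and 4.21% of all features. With L-DOPA against the non-lesioned side 3 of the 32 passed, against 1.12% of all features, all higher: the receptors Vipr1 and Crhr1 and the convertase Pcsk1. Leaving out any 1 non-lesioned array, or replicate 2 or replicate 3 of L-DOPA, ended all 3 of these calls.

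Vipr1, a receptor for vasoactive intestinal peptide and PACAP, had log2 levels of -0.89, -1.84 and -0.35 with L-DOPA and zonisamide, -0.32, -0.28 and 0.08 with L-DOPA, -1.32, -1.43 and -1.61 on lesioned saline and -2.12, -1.97 and -2.61 on non-lesioned saline arrays. Each lesioned group was above the non-lesioned arrays without overlap, and with L-DOPA Vipr1 rose by 2.06 ± 0.33 over the non-lesioned side (limma, adjusted p = 0.0300). Crhr1, the main receptor for corticotropin-releasing hormone, had levels of -5.31, -6.58 and -6.73 with L-DOPA and zonisamide, -4.65, -4.07 and -3.67 with L-DOPA, -5.92, -6.18 and -6.91 on lesioned saline and -6.47, -6.05 and -6.38 on non-lesioned saline arrays. Its L-DOPA arrays were above all other arrays. Crhr1 rose by 2.17 ± 0.41 with L-DOPA over the non-lesioned side (limma, adjusted p = 0.0419), was 2.21 ± 0.41 higher than on lesioned saline (adjusted p = 0.0533), and was -2.08 ± 0.41 with zonisamide relative to L-DOPA alone (adjusted p = 0.0621).

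Pcsk1, the prohormone convertase that cuts many of these precursors, had log2 levels of -2.38, -2.67 and -2.04 with L-DOPA and zonisamide, -1.79, -1.89 and -1.49 with L-DOPA, -2.01, -2.38 and -2.36 on lesioned saline and -2.83, -2.92 and -2.99 on non-lesioned saline arrays. The non-lesioned arrays were below all others, and the L-DOPA arrays above all others. Pcsk1 rose by 1.19 ± 0.19 with L-DOPA over the non-lesioned side (limma, adjusted p = 0.0298), its lesioned saline arrays were 0.66 ± 0.19 above the non-lesioned side (adjusted p = 0.494), and it was -0.64 ± 0.19 with zonisamide relative to L-DOPA (adjusted p = 0.197).

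Tacr3, the receptor for the neurokinin B that Tac3 encodes, had log2 levels of -3.08, -2.00 and -2.76 with L-DOPA and zonisamide, -3.17, -4.68 and -4.91 with L-DOPA, -3.26, -4.81 and -3.94 on lesioned saline and -1.76, -2.30 and -2.49 on non-lesioned saline arrays. The non-lesioned arrays were above the L-DOPA and the lesioned saline arrays without overlap, and the zonisamide arrays lay above both of these. Tacr3 passed in no comparison: it was -2.07 ± 0.52 with L-DOPA relative to the non-lesioned side (adjusted p = 0.0985), -1.82 ± 0.52 on lesioned relative to non-lesioned saline (adjusted p = 0.492) and 1.64 ± 0.52 with zonisamide relative to L-DOPA (adjusted p = 0.228).

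**Figure D4:**
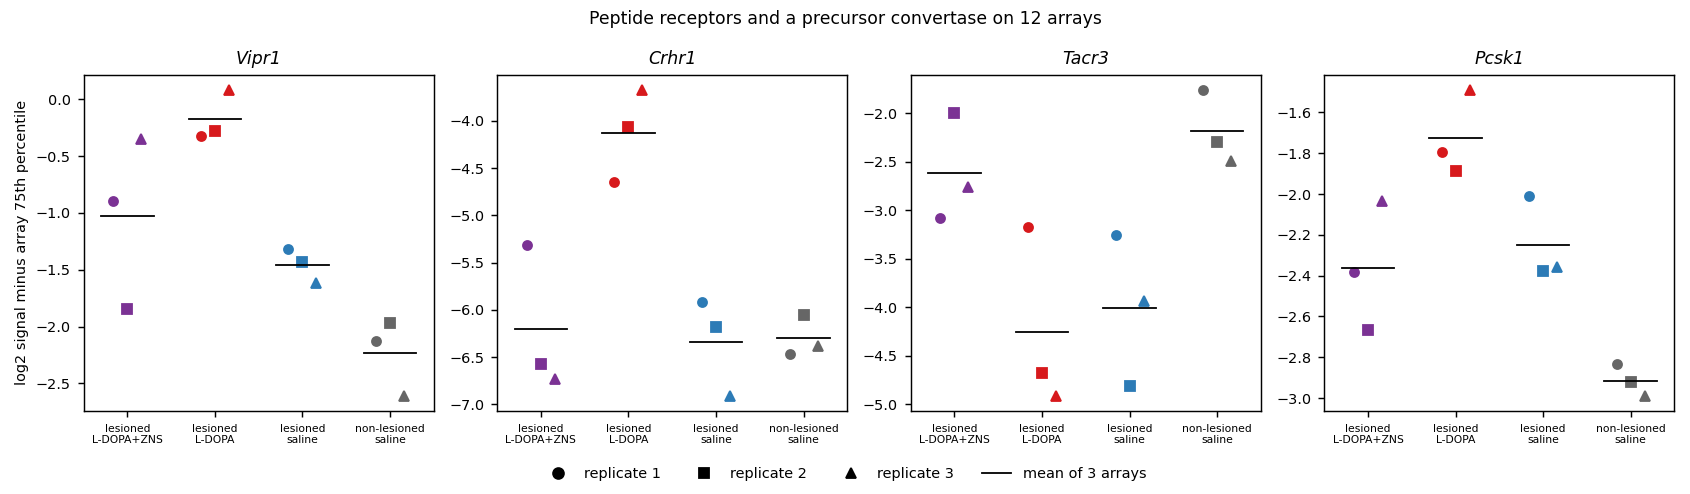
Log2 level (log2 processed signal minus the array's 75th percentile) of the receptors Vipr1, Crhr1 and Tacr3 and the convertase Pcsk1 on the 12 arrays, each on its own vertical axis; symbols are replicates and the line is the mean of 3 arrays. The L-DOPA arrays of Crhr1, between -4.65 and -3.67, lie above all its other arrays, and the non-lesioned arrays of Pcsk1, between -2.99 and -2.83, lie below all its other arrays.

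Among the binding and degrading proteins, none of 7 passed in any comparison (limma). With L-DOPA against the non-lesioned side, the corticotropin-releasing hormone binding protein Crhbp was at 1.16 ± 0.29 (adjusted p = 0.0990) and the peptidase neprilysin, Mme, at -1.03 ± 0.22 (adjusted p = 0.0585); with zonisamide against L-DOPA the differences were -0.85 ± 0.29 for Crhbp (adjusted p = 0.260) and 0.64 ± 0.22 for Mme (adjusted p = 0.269). Among the 14 processing and granule proteins tested, Pcsk1 alone passed, in the 1 comparison given. Vgf, a granule protein and itself a peptide precursor, was at 0.96 ± 0.24 with L-DOPA over the non-lesioned side (adjusted p = 0.0919) and at 0.79 ± 0.24 over lesioned saline (adjusted p = 0.230). Scg2, the precursor of secretoneurin, was at 0.83 ± 0.33 with L-DOPA over lesioned saline (adjusted p = 0.369), and its L-DOPA arrays (3.52 to 3.78) were all above its lesioned saline arrays (2.59 to 2.94). The median over all 32 was 0.17 with L-DOPA against the non-lesioned side, beside 0.04 over all features.

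The genes whose levels were most like those of the 4 members with the smallest p were found by Pearson's r over the 12 arrays, which share groups and slides. For Tac3 they were Nmu, the precursor of the peptide neuromedin U (r = 0.957), Tgm3 (0.954) and Kif22 (0.947). Nmu stood at -3.69 to -2.47 with L-DOPA and zonisamide, -1.77 to -0.07 with L-DOPA, -3.15 to -1.83 on lesioned saline and -4.49 to -4.12 on the non-lesioned side, so its groups lay in the same order as those of Tac3. For Nts they were Kif18b (0.922), Tnnc2 (0.918) and Kcnk6 (0.915). For Trh they were Adm, the precursor of adrenomedullin (0.939), Runx1 (0.933) and Hes3 (0.927), and Adm stood at -2.56 to -1.92 with L-DOPA and zonisamide, -1.89 to -0.84 with L-DOPA, -2.87 to -2.53 on lesioned saline and -2.48 to -1.93 on the non-lesioned side. Hes3 was at background on part of the arrays. On lesioned saline it ran from -8.73 to -8.65, under the lowest level well above background there (-7.76 to -7.58). For Cck they were Efhd2 (0.913), the somatostatin receptor Sstr3 (0.897) and Atpaf1 (0.892).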

How the data were processed

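RNA of rat striatum was measured on 12 Agilent arrays, 3 in each of 4 groups taken from the sample titles. The authors' scanner software was Agilent Feature Extraction, version 10.7.3.1 in the file headers and 10.7 in the submitters' processing notes; the processed signal they deposited is, per the file headers, an intensity with its background subtracted, not scaled between arrays. Their combined table held the same intensity on all 62976 spots within a relative tolerance of 1e-06. No authors' normalization beyond this is given in the sources used here, and the deposited intensities were turned into log2 here.

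Outlier spots and 4259 control spots were left out, spots of a probe averaged, and each array's 75th percentile subtracted. Probes well above background on at least 0.5 of their spots on all 3 arrays of a group were tested (21602). RefSeq accessions gave a symbol to 17328 probes and none to 13039, and the brightest tested probe stood for a gene, leaving 19532 features. Probe coordinates are not given, since the probe design and the symbols use different rat assemblies.

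All 12 arrays were fitted with limma 3.58.1 in R 4.3.3 (data.table, version 1.17.8), with group as the only term and 8 residual degrees of freedom. P-values are two-sided, with Benjamini-Hochberg adjustment over the features of each of 6 comparisons. The smallest p that an exact permutation of 3 against 3 arrays allows is 0.1, and none was run; the number of arrays limits the precision. The script was tested on simulated data. Named are all members, the 2 to 4 genes of each companion list with the smallest p, and 3 genes most correlated with each of 4 members. Members and lists were chosen with earlier results of these data known. Alternatives changed scaling, background correction, filter, probe rule, fit, weights, blocks, a Ttr covariate and the arrays used.

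The arrays lay on 5 slides. Replicate 1 of all groups shared 1 slide, replicate 2 of the lesioned groups another, and replicate 3 of both drug groups a further one with replicate 2 of the non-lesioned side; the other replicates 3 were each alone. Same-numbered arrays deviated together, with every correlation over 0.1, for L-DOPA with zonisamide against L-DOPA (0.37, 0.20 and 0.24, same slides) and against non-lesioned saline (0.21, 0.10 and 0.16). The other comparisons did not meet this cutoff, though L-DOPA against non-lesioned saline came near it with 0.31, 0.06 and 0.11.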

Additional observations from a re-analysis of the deposited data

How the results depend on the processing

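Of the 11 member differences with an unadjusted p under 0.05, none changed sign in 215 values over the alternatives, and of the other 43, 75 of 832 values did. The members called in L-DOPA against non-lesioned saline numbered 2. They were 3 without the 2 arrays highest in cortical markers, where Trh also passed. They were 1 with normexp and quantile normalization, without the filter on dim probes and with array weights. With only the groups compared, a replicate block, slide as a fixed block or Ttr as a covariate they were 0, and leaving out 1 array 0 to 2. The 3 companion genes called there became 1 with quantile normalization and with array weights, 0 with normexp, only the groups compared, a replicate block, a fixed slide block or the Ttr covariate, and 0 to 4 leaving out 1 array. For L-DOPA against lesioned saline no member or companion gene was called, except 1 member and 2 companion genes with array weights, 2 members and 1 companion gene without the 2 arrays highest in cortical markers, and 0 to 1 companion genes leaving out 1 array. For L-DOPA with zonisamide against L-DOPA the count of 0 became 2 members and 1 companion gene without those 2 arrays, 1 companion gene with slide as a random block, and 0 to 2 members and 0 to 1 companion genes leaving out 1 array. In the 3 other comparisons no alternative called a member or companion gene. The cause of these moves was not tested; fitting only the groups compared leaves fewer arrays, and the fixed slide block takes nothing from the 2 arrays alone on a slide.

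With the replicate block, the L-DOPA rises over the non-lesioned side had an adjusted p of 0.0529 for Tac3 and 0.0539 for Nts (limma). Same-numbered arrays of that comparison had correlations of 0.31, 0.06 and 0.11, of which 1 missed the cutoff of 0.1, so a pairing there is not settled. In the 2 comparisons that met the cutoff, no member was called with or without the block. Over all features, the calls ran from 0 to 346 for L-DOPA against non-lesioned saline (219 as reported), 0 to 441 for L-DOPA against lesioned saline (81), 0 to 241 for L-DOPA with zonisamide against L-DOPA (91), 0 to 15 for lesioned against non-lesioned saline (0), 0 to 10 for L-DOPA with zonisamide against non-lesioned saline (0) and 0 to 3 against lesioned saline (0). Replicate spots varied by over 20% on 5 arrays, which include all 3 non-lesioned ones, so the comparisons with that group could not be run without them. Signal over background limits Adcyap1 and the second Crh probe.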
